A study of Mus musculus with 6 samples.

Results

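The let-7 family guide strands are the mature let-7 microRNAs (miRNAs) cut from the 5′ arm of their hairpins, together with miR-98-5p. They were taken by name from a table of counts for mature miRNAs of mouse bone vesicles, and made up 10 of its 1927 rows. One row joins let-7e-5p and let-7k, so the 10 rows hold 11 names. All 10 rows had counts in every library, and all 10 were kept by the filter on low counts. Extracellular vesicles, membrane-bound particles that cells release, came from crushed tibias and femurs of untreated male Swiss-CD1 mice, 8 weeks old, once centrifugation had removed the marrow. Large vesicles (lEVs) were pelleted at 10000 g. Small vesicles (sEVs) were then taken from the surface of a sucrose cushion after a 100000 g spin, and each fraction had 3 libraries. Size, spin and cushion differ together between the fractions and cannot be told apart, and the vesicles come from all cells left in the bone. Whether replicates are separate animals or preparations is not in the labels, so p-values reflect only how these libraries vary, which may be technical.

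let-7 was found in the worm Caenorhabditis elegans as a regulator of developmental timing. In mammals its members accumulate as cells differentiate, and the RNA-binding protein LIN28 blocks the maturation of their precursors in stem and embryonic cells. The mature strands guide Argonaute proteins to messenger RNAs such as those of Hmga2, Lin28 and Ras genes, mainly by pairing of the seed, bases 2 to 8. A hairpin yields a guide strand, which is kept, and a passenger strand, which is mostly degraded.

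The mature sequences are shown because the members differ by so few bases that the counts of one depend on how reads of another were assigned. All 11 names matched RefSeq entries (build GRCm38.p6); sequences run 5′ to 3′ with the seed in capitals.
let-7a-5p: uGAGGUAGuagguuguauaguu
let-7b-5p: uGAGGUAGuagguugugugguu
let-7c-5p: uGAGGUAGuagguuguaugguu
let-7d-5p: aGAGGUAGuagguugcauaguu
let-7e-5p: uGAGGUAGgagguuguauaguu
let-7k: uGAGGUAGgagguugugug
let-7f-5p: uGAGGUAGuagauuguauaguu
let-7g-5p: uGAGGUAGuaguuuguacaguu
let-7i-5p: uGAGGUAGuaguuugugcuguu
let-7j: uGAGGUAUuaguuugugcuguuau
miR-98-5p: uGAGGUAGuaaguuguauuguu

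Of these, 10 names share the seed GAGGUAG, while let-7j carries GAGGUAU. The only other RefSeq mouse miRNAs with these seeds were miR-1961 for the first and miR-202-3p for the second, and both stood at 0 counts in every library. Of the 55 pairs of mature sequences, 6 differ by 1 base over their shared length. With positions counted from 1 at the 5′ end and the first-named base first, let-7a-5p and let-7c-5p differ by A19G, let-7a-5p and let-7f-5p by G12A, and let-7a-5p and let-7e-5p by U9G. let-7b-5p and let-7c-5p differ by G17A, let-7b-5p and let-7k by U9G, and let-7i-5p and let-7j by G8U. How the authors assigned reads that fit more than one member is not given in the sources used here, and the part of such reads in the counts was not tested.

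The 14 hairpins lie at 10 places in the genome, numbered here on GRCm38 with annotation from GENCODE M21. Mirlet7a-1 (48538179 to 48538272), Mirlet7f-1 (48537829 to 48537917) and Mirlet7d (48536012 to 48536114) lie on the minus strand of chromosome 13, overlapping exons of the noncoding gene 6720427I07Rik. Mirlet7c-2 (85706603 to 85706697) and Mirlet7b (85707319 to 85707403) lie 621 bases apart on the plus strand of chromosome 15, overlapping exons of the noncoding gene Lncppara. Mirlet7f-2 (151912346 to 151912428) and Mir98 (151913214 to 151913321) lie in an intron of Huwe1 on the plus strand of chromosome X. Mirlet7c-1 (chromosome 16, 77599657 to 77599750, plus strand) lies in an intron of Mir99ahg, 656 bases from Mir99a, and Mirlet7e (chromosome 17, 17830352 to 17830444, plus strand) in an intron of Spaca6, 367 bases from Mir125a. Mirlet7a-2 (chromosome 9, 41536716 to 41536811, plus strand) lies in an intron of the noncoding gene 3110039I08Rik with Mir100, 5211 bases away, and Mir125b-1, 45114 bases away. Mirlet7g (chromosome 9, 106178840 to 106178927, plus strand) lies in an intron of Wdr82. Mirlet7i (chromosome 10, 122985640 to 122985724, minus strand) overlaps an exon of the pseudogene D630033A02Rik. Mir7j (chromosome 3, 140028249 to 140028370, plus strand) and Mir7k (chromosome 5, 147283189 to 147283298, minus strand), the hairpins of let-7j and let-7k, lie between annotated genes. Mature let-7a, let-7c and let-7f each come from 2 hairpins, whose parts in a count cannot be told apart.

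The guide strands took between 25.6% and 32.0% of all miRNA counts in bone vesicles. Their share was 32.0% in lEVs replicate 1 (Wilson 95% interval 31.5 to 32.4), 25.6% in lEVs replicate 2 (25.3 to 25.9) and 26.0% in lEVs replicate 3 (25.7 to 26.3). In sEVs replicates 1, 2 and 3 it was 27.3% (26.9 to 27.6), 26.7% (26.4 to 27.0) and 26.0% (25.8 to 26.3). The sEVs libraries and lEVs replicates 2 and 3 lay within a narrow band, and lEVs replicate 1 lay above all of them. The means were 27.8% ± 3.57 in lEVs and 26.7% ± 0.627 in sEVs (n = 3 each, ± SD; two-sided exact permutation p = 1), so no difference larger than the spread was seen. Library totals ran from 47441 counts in lEVs replicate 1 to 114331 in sEVs replicate 3, with 15159 to 29741 of them in the family. Intervals cover counting error only.

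Levels were compared as CPM, counts relative to the library total corrected by a TMM factor, which is computed on the assumption that most miRNAs do not differ between libraries. Each row counts whole mature miRNAs of 19 to 24 bases, so levels were not divided by length; differences in ligation between sequences are part of the levels and were not tested. The 5 largest members, let-7c-5p, let-7b-5p, let-7f-5p, let-7i-5p and let-7a-5p, held 95.4% to 97.3% of the family's counts in each library. Among the 10 most abundant rows of the table were all 5 of them in lEVs and, without let-7a-5p at rank 11, 4 in sEVs; let-7c-5p had rank 3 in both. let-7e-5p/7k, let-7g-5p and let-7d-5p followed between 1680 and 6169 CPM, and let-7j and miR-98-5p stood lowest, between 103 and 391 CPM. In sEVs the order of mean levels was let-7c, let-7b, let-7f, let-7i, let-7a, let-7e/7k, let-7g, let-7d, let-7j and miR-98, and the ranges of let-7i and let-7a were the only neighbours to overlap. In lEVs the mean of let-7i stood above that of let-7f, but only 1 library, replicate 1, had this order. miR-98 stood above let-7j by its mean and in 2 libraries. The ranges in lEVs overlapped from let-7c down to let-7f, between let-7e/7k and let-7g, and between miR-98 and let-7j.

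**Figure D1:**
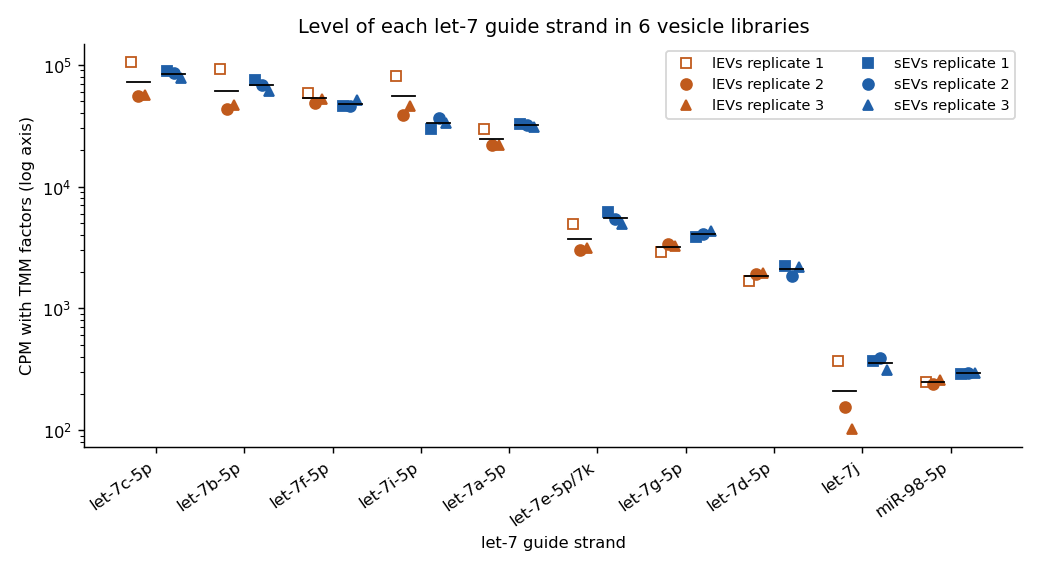
CPM with TMM factors (log axis) of each let-7 guide strand, 1 point per library and black lines at the mean of 3 libraries; open squares are lEVs replicate 1. That library lies above both other lEVs libraries for let-7j, let-7b-5p, let-7i-5p, let-7c-5p, let-7e-5p/7k, let-7f-5p and let-7a-5p, and below them for let-7g-5p and let-7d-5p.

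The design's contrast asks which miRNAs differ between small and large vesicles, and here no guide strand passed it with all 6 libraries. In edgeR's quasi-likelihood test, adjusted (Benjamini-Hochberg) across 145 tested miRNAs, 0 of 10 members had an adjusted p under 0.05, where 17.2% of all tested miRNAs did. At an unadjusted p under 0.05 there were 5 of 10, where 37.9% of all tested miRNAs passed. DESeq2 called 3 (let-7a-5p and let-7e-5p/7k higher in sEVs and let-7i-5p higher in lEVs; 25.5% of all tested) and limma voom 1 (let-7j, higher in sEVs; 20.0% of all tested). Log2 fold changes, sEVs relative to lEVs, were above 0 for 8 members and below 0 for let-7i-5p and let-7f-5p, with a median of 0.23 against -0.04 over all tested miRNAs. In CPM, 4 of 10 members had fractions that did not overlap, close to the 44.1% of all tested miRNAs.

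let-7i-5p, made from a single hairpin, was the member with the lowest fold change. It had 80278, 38936 and 45909 CPM in lEVs replicates 1, 2 and 3 and 29449, 36198 and 33460 CPM in those of sEVs. The 3 lEVs values lay above the 3 sEVs values, with lEVs replicate 1 far above the others. In lEVs the mean was 55041 ± 22132 CPM, and in sEVs it was 33036 ± 3394 CPM (n = 3 each, ± SD; log2 fold change -0.73 with an SE of 0.27; adjusted p = 0.0854 in edgeR). As a share of library totals let-7i-5p took 5.52% ± 1.18 in lEVs and 3.18% ± 0.318 in sEVs (n = 3 each, ± SD), and edgeR with library totals in place of TMM factors called it higher in lEVs (log2 fold change -0.80 with an SE of 0.16; adjusted p = 0.00713, with 24.1% of all tested miRNAs called). Without lEVs replicate 2 it was called as well (log2 fold change -0.96; edgeR adjusted p = 0.0179, with 14.9% of all tested called), and without lEVs replicate 1 the call came with a smaller log2 fold change of -0.37. It was not called without lEVs replicate 3 (adjusted p = 0.118 in edgeR), without sEVs replicates 1, 2 and 3 (0.237, 0.125 and 0.164) or with the replicate block (0.106).

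let-7c-5p and let-7b-5p, which share the chromosome 15 locus, were the most abundant members and had parallel values across libraries. let-7c-5p had 104665, 55756 and 56754 CPM in lEVs replicates 1, 2 and 3 and 89396, 85821 and 78079 CPM in those of sEVs. For let-7b-5p the values were 91421, 43628 and 46446 CPM in lEVs and 74313, 68367 and 61362 CPM in sEVs. In both, lEVs replicate 1 was the highest of all 6 libraries and lEVs replicates 2 and 3 the lowest, so the fractions overlapped. The log2 fold changes were 0.22 (SE 0.25; adjusted p = 0.509 in edgeR) for let-7c-5p and 0.17 (SE 0.28; adjusted p = 0.662 in edgeR) for let-7b-5p. That of let-7b-5p turned to -0.05 without lEVs replicate 2 and to -0.01 without lEVs replicate 3, and that of let-7c-5p came to 0.03 and 0.06. Without lEVs replicate 1 both were 0.58 or above.

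let-7a-5p, the member with the sequence shared by worms and mammals, had 29798, 21740 and 22092 CPM in lEVs and 32347, 31874 and 31027 CPM in sEVs, with the 3 sEVs values above the 3 lEVs values. Its means were 24544 ± 4554 and 31749 ± 669 CPM (n = 3 each, ± SD; log2 fold change 0.37 with an SE of 0.15; adjusted p = 0.120 in edgeR). let-7f-5p, encoded beside it on chromosome 13, had 58238, 48438 and 52385 CPM in lEVs, and in sEVs 45581, 46125 and 51038 CPM. Its fractions overlapped between lEVs replicate 2 and sEVs replicate 3 (log2 fold change -0.16 with an SE of 0.13; adjusted p = 0.373 in edgeR). let-7d-5p, from the same locus, ran from 1680 to 1962 CPM in lEVs and from 1839 to 2236 CPM in sEVs (log2 fold change 0.16 with an SE of 0.14; adjusted p = 0.404 in edgeR).

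Among the less abundant members, let-7e-5p/7k had 4942, 3039 and 3140 CPM in lEVs and 6169, 5392 and 4902 CPM in sEVs. Only lEVs replicate 1 reached the sEVs range, and the log2 fold change was 0.58 (SE 0.21; adjusted p = 0.0844 in edgeR). let-7g-5p, from the Wdr82 intron, had 2916, 3388 and 3253 CPM in lEVs and 3864, 4070 and 4345 CPM in sEVs. In CPM its fractions did not overlap (log2 fold change 0.36 with an SE of 0.12, adjusted p = 0.0782 in edgeR). As shares of library totals they overlapped. edgeR with library totals in place of TMM factors gave let-7g-5p a log2 fold change of 0.22 (adjusted p = 0.443). let-7j rested on 15, 17 and 10 counts in lEVs replicates 1, 2 and 3 and on 27, 37 and 35 in those of sEVs. In CPM it stood at 371, 156 and 103 in lEVs and 373, 391 and 314 in sEVs, so that lEVs replicate 1 alone reached the sEVs libraries (log2 fold change 0.99 with an SE of 0.40; adjusted p = 0.119 in edgeR). For miR-98-5p there were 10, 26 and 25 counts across lEVs, against 21, 28 and 33 across sEVs, at 239 to 258 CPM and 290 to 296 CPM. Those ranges did not overlap, but the log2 fold change of 0.25 (SE 0.20) did not pass (adjusted p = 0.427 in edgeR). The shares of miR-98-5p in library totals overlapped, and edgeR with library totals gave a log2 fold change of 0.09 (adjusted p = 0.839).

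The library of lEVs replicate 1 set much of the spread. Against the mean of the other lEVs libraries its log2 CPM was higher by 1.52 for let-7j, 1.02 for let-7b-5p, 0.92 for let-7i-5p, 0.90 for let-7c-5p, 0.68 for let-7e-5p/7k, 0.44 for let-7a-5p and 0.21 for let-7f-5p. For miR-98-5p, let-7g-5p and let-7d-5p the log2 differences were -0.01, -0.19 and -0.21. The members therefore did not shift together in that library. The median log2 difference was 0.56 over the members and 0.11 over all tested miRNAs. Its TMM factor of 0.853, against 1.18 and 1.12 in the other lEVs libraries, enters these values. As shares of library totals the log2 differences were 1.08 for let-7j, 0.59 for let-7b-5p, 0.50 for let-7i-5p and 0.47 for let-7c-5p, 0.25 for let-7e-5p/7k and 0.02 for let-7a-5p. They were -0.22 for let-7f-5p, -0.43 for miR-98-5p, -0.62 for let-7g-5p and -0.64 for let-7d-5p. Both scales differ only by a factor per library, so all members shift nearly alike and their order is kept by construction. The sign of let-7f-5p was the only one to turn.

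**Figure D2:**
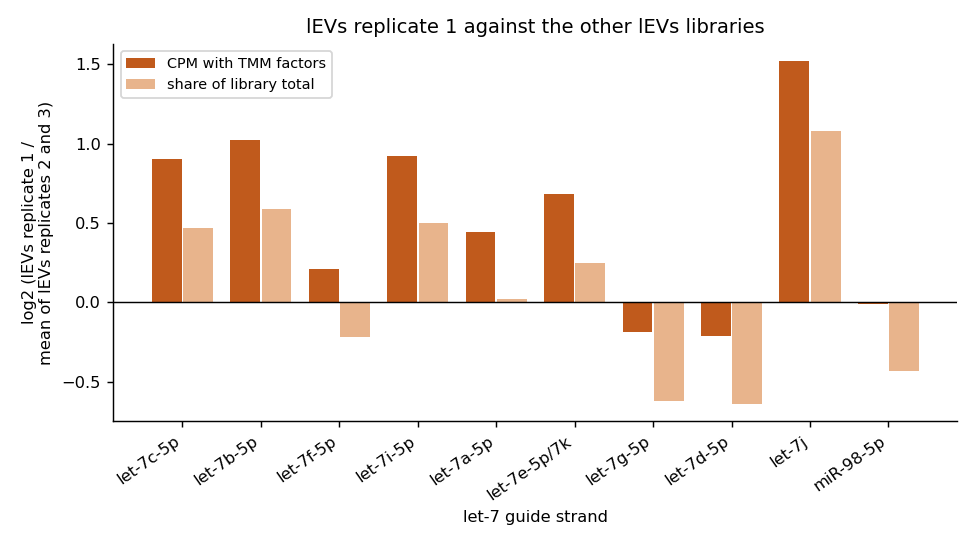
Log2 ratio of lEVs replicate 1 to the mean of lEVs replicates 2 and 3 for each let-7 guide strand, from CPM with TMM factors (dark bars) and from shares of library totals (light bars). let-7j, let-7b-5p, let-7i-5p and let-7c-5p stand highest, and let-7d-5p and let-7g-5p lowest. Both scales differ only by a factor per library, so they keep this order by construction.

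lEVs replicate 1 also had the fewest counts, 47441, and other marker miRNAs moved in it. The 3 cartilage miRNAs listed (miR-140-3p, miR-140-5p and miR-455-3p) summed to 2.04% of its counts, against 1.42% and 1.44% in the other lEVs libraries and 1.11% to 1.19% in sEVs. The 3 skeletal muscle miRNAs summed to 1.78% there, against 2.58% and 2.41% in the other lEVs libraries and 1.67% to 2.00% in sEVs. The 3 myeloid miRNAs summed to 4.08% against 5.60% and 5.59%, with 4.34% to 4.80% in sEVs. The 4 red cell miRNAs summed to 0.746% against 0.544% and 0.588%, with 0.438% to 0.568% in sEVs. The 2 endothelial miRNAs took 6.52% against 7.80% and 7.73%, with 8.24% to 8.60% in sEVs, and the 4 mesenchymal ones 10.8% against 12.2% and 11.9%, with 11.6% to 13.3% in sEVs. The 2 liver miRNAs summed to at most 0.0318% of a library, and miR-122-5p was at 0 in every one. With all libraries, 1 miRNA on these lists, the mesenchymal miR-143-3p, passed the test between fractions, higher in sEVs. The part of depth and of cell makeup in the values of lEVs replicate 1 was not tested.

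Without lEVs replicate 1, 6 of the 10 guide strands passed, where 34.4% of all tested miRNAs did. let-7c-5p, let-7b-5p, let-7e-5p/7k, let-7a-5p and let-7j rose in sEVs relative to lEVs, where 19.2% of all tested miRNAs rose. let-7i-5p fell in sEVs, where 15.2% fell. The log2 fold changes of let-7c-5p, let-7b-5p and let-7a-5p were then 0.58 (SE 0.09; adjusted p = 3.13e-05 in edgeR), 0.59 (SE 0.10; 6.57e-05) and 0.53 (SE 0.10; 0.000181). For let-7e-5p/7k the value was 0.82 (SE 0.14; adjusted p = 0.000119 in edgeR) and for let-7j 1.43 (SE 0.32; 0.00146). let-7i-5p went from a log2 fold change of -0.73 to -0.37 (SE 0.10; adjusted p = 0.00680 in edgeR). let-7g-5p, let-7d-5p, let-7f-5p and miR-98-5p, at log2 fold changes of 0.30, 0.09, -0.09 and 0.24, did not pass (adjusted p = 0.0921, 0.682, 0.467 and 0.554 in edgeR). The common biological coefficient of variation of the fit was 0.0832 without that library and 0.177 with it. Here lEVs rest on 2 libraries. lEVs replicate 1 stood apart from them in these same data, so leaving it out favours a smaller spread and smaller p-values.

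**Figure D3:**
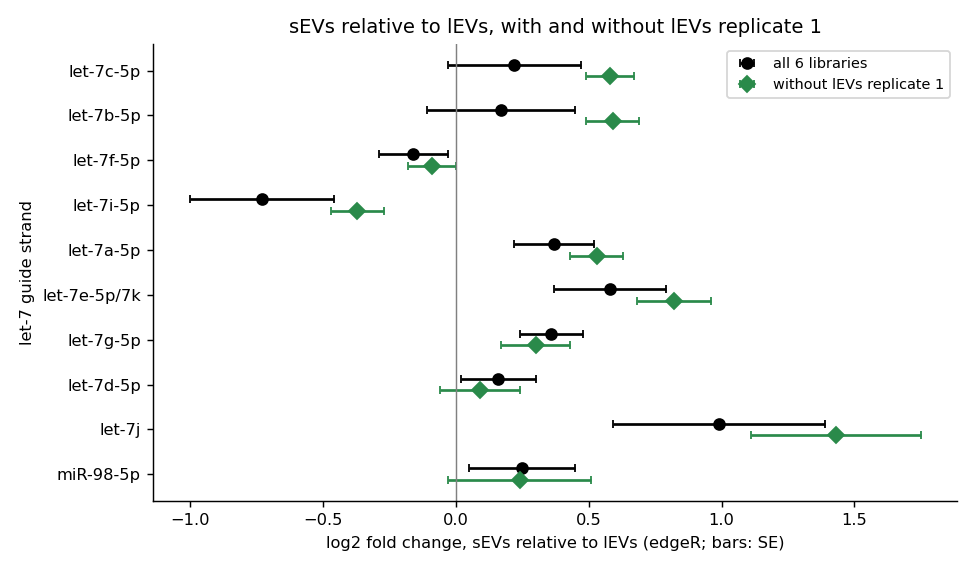
Log2 fold change, sEVs relative to lEVs, with its SE from edgeR, for each let-7 guide strand with all 6 libraries (black circles) and without lEVs replicate 1 (green diamonds). Leaving it out moved let-7b-5p from 0.17 to 0.59 and let-7i-5p from -0.73 to -0.37, and the bars became shorter for most members.

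Shares within the family need no scaling between libraries, and in percentage points the fractions lay furthest apart in let-7i-5p. let-7i-5p made up 21.4%, 17.9% and 19.8% of the guide strand counts of lEVs replicates 1, 2 and 3 and 10.4%, 12.9% and 12.5% of those of sEVs. Every lEVs library, replicate 1 included, lay above every sEVs library. The mean shares were 19.7% ± 1.76 and 11.9% ± 1.37 (n = 3 each, ± SD; two-sided exact permutation p = 0.1, the smallest that 3 against 3 libraries allow). Shares within a library have a fixed sum, so a lower share of let-7i-5p raises those of the others. Shares without let-7i-5p were not computed. let-7c-5p had the opposite order, though in CPM its fractions overlapped. Its shares were 27.9%, 25.7% and 24.4% of the lEVs guide strands and 31.5%, 30.6% and 29.2% of those in sEVs, with no overlap. let-7a-5p took 9.16% ± 1.07 in lEVs against 11.5% ± 0.140 in sEVs, and let-7e-5p/7k 1.36% ± 0.0400 against 1.98% ± 0.174 (n = 3 each, ± SD; exact permutation p = 0.1 for each), again without overlap. The other member without overlap was let-7j, at 0.0718% ± 0.0272 and 0.129% ± 0.0110 (n = 3 each, ± SD; exact permutation p = 0.1). Of all tested miRNAs, 40.7% did not overlap when counted over the family sum, so 5 of 10 members is near the background.

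The other members overlapped in their share. let-7b-5p took 24.4%, 20.1% and 20.0% of the family in lEVs and 26.2%, 24.4% and 23.0% in sEVs. let-7f-5p took 15.5%, 22.3% and 22.6% in lEVs and 16.0%, 16.5% and 19.1% in sEVs. In both, lEVs replicate 1 lay in or beside the range of sEVs and away from the other lEVs libraries. let-7g-5p and let-7d-5p were at 0.778% and 0.449% of the family in lEVs replicate 1, and between 1.36% and 1.63% and between 0.656% and 0.883% in the other 5 libraries. Without lEVs replicate 1, 8 of 10 members did not overlap, where 66.9% of all tested miRNAs did not. Wilson 95% intervals of these shares reached at most 0.714 percentage points to either side.

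**Figure D4:**
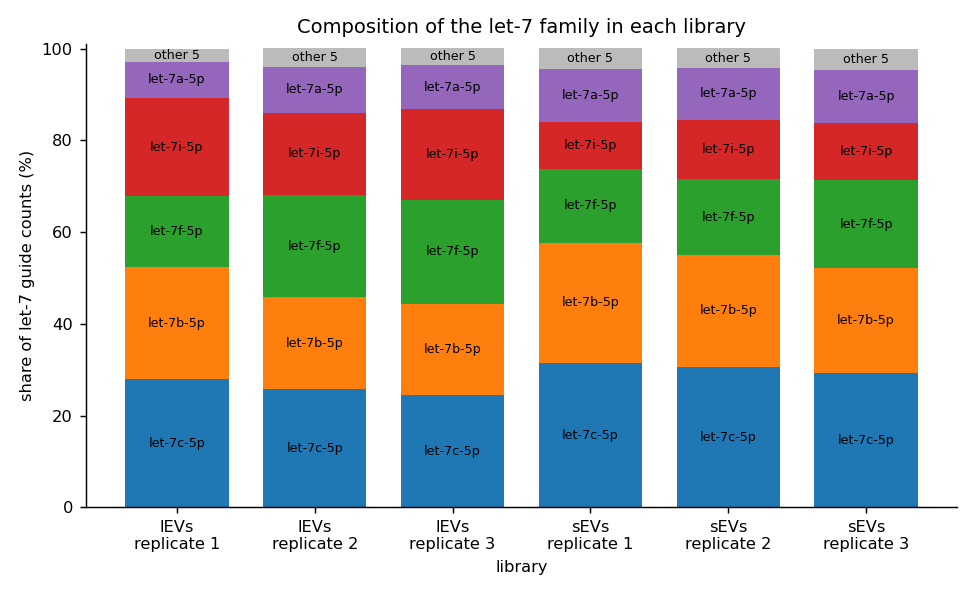
Share of the let-7 guide strand counts (percent) taken by each of the 5 largest members and by the other 5 together, 1 stacked bar per library. The let-7i-5p block is 17.9% to 21.4% in lEVs and 10.4% to 12.9% in sEVs, and the let-7f-5p block of lEVs replicate 1, 15.5%, is smaller than in the other lEVs libraries.

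When every library was scaled to the summed family, so that each fold change is relative to the family as a whole, edgeR called let-7i-5p and no other member (log2 fold change -0.72 with an SE of 0.14; adjusted p = 0.00556, with 12.4% of all tested miRNAs called). On this scale the values of let-7e-5p/7k, let-7a-5p, let-7c-5p and let-7j were 0.54, 0.32, 0.23 and 0.88 in log2 fold change (adjusted p = 0.111, 0.170, 0.177 and 0.101 in edgeR). The share of counts that would have to change member to turn the composition of one library into that of another was 2.09% between lEVs replicates 2 and 3 and 3.05% to 5.77% among sEVs libraries. lEVs replicate 1 stood 9.65% and 10.1% from the other lEVs libraries and 8.55% to 11.1% from those of sEVs. Between fractions, the libraries other than lEVs replicate 1 stood 8.64% to 16.0% apart.

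Ratios of counts within a library set near-identical or neighbouring members side by side. For 11 ratios, chosen with the counts known, the smallest exact permutation p is 0.1, or 0.183 after Benjamini-Hochberg adjustment over the 11. let-7b-5p over let-7c-5p, the neighbours on chromosome 15, was 0.873, 0.782 and 0.818 in lEVs replicates 1, 2 and 3 and 0.831, 0.797 and 0.786 in those of sEVs. This ratio was nearly level over all 6 libraries, lEVs replicate 1 included (exact permutation p = 0.7; adjusted 0.856). let-7f-5p over let-7a-5p, from a shared chromosome 13 locus and 1 base apart, was 1.95, 2.23 and 2.37 in lEVs and 1.41, 1.45 and 1.64 in sEVs. Every lEVs ratio lay above every sEVs ratio (2.18 ± 0.212 and 1.5 ± 0.127; n = 3 each, ± SD; exact permutation p = 0.1; adjusted 0.183). let-7c-5p over let-7i-5p was 1.30, 1.43 and 1.24 in lEVs and 3.04, 2.37 and 2.33 in sEVs. It was 1.95-fold higher in sEVs with no overlap (exact permutation p = 0.1; adjusted 0.183), and lEVs replicate 1 lay between the other lEVs libraries. let-7a-5p over let-7c-5p overlapped between fractions, at 0.355 ± 0.0606 in lEVs and 0.377 ± 0.0184 in sEVs (n = 3 each, ± SD, exact permutation p = 0.8, adjusted 0.880). So did let-7e-5p/7k over let-7a-5p, at 0.149 ± 0.0144 and 0.173 ± 0.0166 (n = 3 each, ± SD, exact permutation p = 0.2, adjusted 0.275).

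let-7j is let-7i-5p with G8U and a longer 3′ end, as their sequences show, and its fold change had the opposite sign. Its counts were 0.462%, 0.401% and 0.225% of those of let-7i-5p in lEVs replicates 1, 2 and 3 (Wilson 95% intervals 0.279 to 0.763, 0.250 to 0.643 and 0.122 to 0.414). In sEVs they were 1.27%, 1.08% and 0.939% (0.868 to 1.85, 0.783 to 1.49 and 0.674 to 1.31). All sEVs values lay above all lEVs values (1.09% ± 0.164 and 0.363% ± 0.123; n = 3 each, ± SD; exact permutation p = 0.1; adjusted 0.183). These values rest on 10 to 37 counts of let-7j, and the part of read assignment between both members was not tested. The ratios of let-7c-5p, let-7j and let-7g-5p to let-7i-5p share its counts, so they are not separate results. let-7g-5p, which differs from let-7i-5p by A17G and A19U, stood at a ratio to it of 0.0647 ± 0.0259 in lEVs and 0.125 ± 0.0105 in sEVs (n = 3 each, ± SD; exact permutation p = 0.1; adjusted 0.183), also without overlap. miR-98-5p over let-7f-5p, which share the Huwe1 intron through Mirlet7f-2, was 0.00470 ± 0.000396 in lEVs and 0.00619 ± 0.000338 in sEVs (n = 3 each, ± SD, exact permutation p = 0.1, adjusted 0.183). This ratio rests on 10 to 33 counts of miR-98-5p, and its Wilson 95% intervals overlapped between fractions. In percent they were 0.230 to 0.782 in lEVs replicate 1 and 0.413 to 0.816 in sEVs replicate 3.

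**Figure D5:**
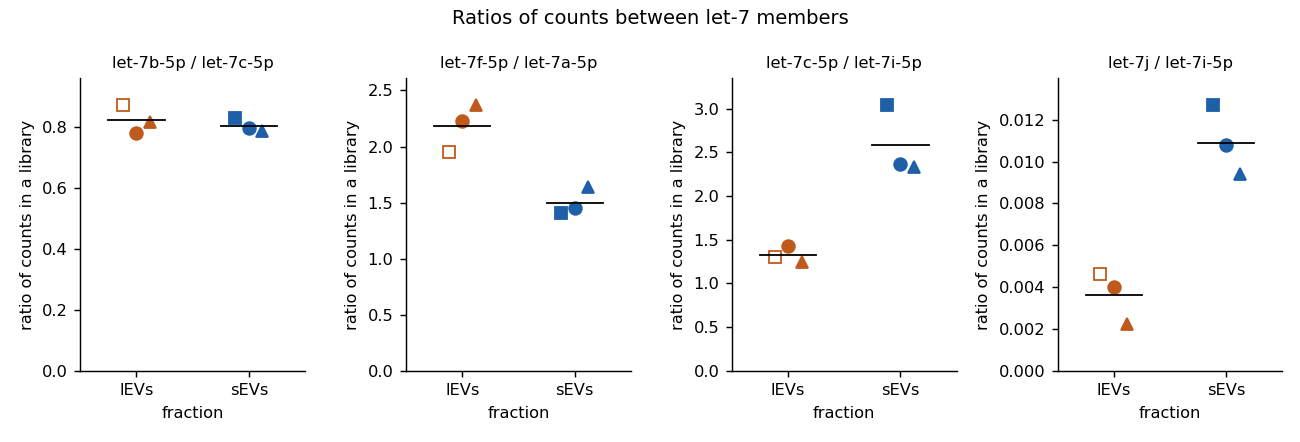
Ratio of counts within a library for 4 pairs of let-7 members, 1 point per library with black lines at the mean of 3 (squares, circles and triangles are replicates 1, 2 and 3; the open square is lEVs replicate 1). let-7b-5p over let-7c-5p is 0.782 to 0.873 throughout, while the other ratios do not overlap between lEVs and sEVs. Those of let-7c-5p and let-7j share the denominator let-7i-5p and are not separate results.

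The passenger strands of the family were nearly absent. Of their 11 rows, 6 were at 0 in every library, 4 had no count above 5, and let-7d-3p alone was tested. Passenger counts came to 0.0975 ± 0.0239 per 100 guide counts in lEVs and 0.200 ± 0.0416 in sEVs (n = 3 each, ± SD; exact permutation p = 0.1), and most of them were of let-7d-3p. Its sequence is shown because its seed, UAUACGA, is not that of the guide strands.
let-7d-3p: cUAUACGAccugcugccuuucu
The counts of let-7d-3p were 12, 15 and 20 across lEVs replicates 1, 2 and 3 and 39, 60 and 41 across those of sEVs, with the 3 sEVs values also higher in CPM (368 to 634 against 138 to 297). It rose in sEVs (log2 fold change 1.37 with an SE of 0.33; adjusted p = 0.0225 in edgeR), where 8.28% of all tested miRNAs rose. By its adjusted p, the call was lost without lEVs replicate 2 (0.0751 in edgeR) and without lEVs replicate 3 (0.0930), as it was without sEVs replicates 1 (0.0526) and 2 (0.0917). Over its own guide strand let-7d-5p the ratio was 0.118 ± 0.0535 in lEVs and 0.251 ± 0.0885 in sEVs, with overlap (n = 3 each, ± SD; exact permutation p = 0.2; adjusted 0.275).

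Of the 5 miRNAs listed as cluster partners of let-7 hairpins, 2 rose in sEVs, miR-125b-5p and miR-125a-5p, and 3 did not pass. The miRNAs that rose are members of a family known, like let-7, to repress Lin28. Over all tested miRNAs the share higher in sEVs was 8.28%. miR-125b-5p stood at a log2 fold change of 1.24 and miR-125a-5p at 1.30 (adjusted p = 0.000534 and 0.00184 in edgeR), against 0.58 for let-7e-5p/7k, the neighbour of miR-125a. The other 3, miR-99a-5p, miR-99b-5p and miR-100-5p, stood at log2 fold changes of 0.18, 0.19 and -0.14 (adjusted p = 0.462, 0.362 and 0.690 in edgeR). let-7c-5p over miR-99a-5p, its neighbour on chromosome 16, was 114 in lEVs replicate 1, 45.0 and 41.9 in the other lEVs libraries and 57.8 to 68.8 in sEVs, so lEVs replicate 1 stood apart. let-7e-5p/7k over miR-99b-5p was 1.67 ± 0.208 in lEVs and 2.21 ± 0.211 in sEVs (n = 3 each, ± SD; exact permutation p = 0.1; adjusted 0.183).

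Outside the family and its cluster partners, the 3 tested miRNAs whose log2(CPM + 10) was most like that of the summed family over the 6 libraries were miR-328-3p, miR-16-5p and miR-199a-3p/199b-3p, with Pearson's r of 0.96, 0.92 and 0.88. The last of them is also on the mesenchymal list. These points share library, depth and TMM factor. All 3 were highest in lEVs replicate 1, at 2100, 216323 and 108223 CPM, and lowest in lEVs replicate 2, at 624, 135180 and 78983 CPM, as was the family at 374556 and 217238 CPM.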

How the data were processed

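The authors deposited counts per mature miRNA, whole numbers that are not normalized, for 6 libraries. Per the labels' protocols, vesicle RNA was extracted with a miRNeasy kit, turned into libraries (QIAseq miRNA kit) and read on a MiSeq. Per the submitters' processing notes, they used build GRCm38, DESeq2 1.38.2 and R 4.2.2. The aligner, read assignment and use of strand or molecular identifiers are not given in the sources used. The table holds no value of 1, so a 0 may stand for 0 or 1 count.

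Columns were matched to samples by their description and groups taken from titles. Counts of the whole table went into the quasi-likelihood test of edgeR 4.0.16 (R 4.3.3) with TMM factors and filterByExpr (10 counts at least, 15 in total, keeping 145 of 327 miRNAs above 0), adjusted by Benjamini-Hochberg and called at 0.05. The SE is the absolute log2 fold change over the square root of F. Members' shares and ratios were compared by two-sided exact permutation in scipy 1.17.1. Alternatives used DESeq2 1.42.0, limma 3.58.1 (voom), other scalings and filters, a replicate block, and each library left out. Replicates of a fraction differed beyond sampling noise (chi-square over degrees of freedom 2.06 to 20.1).

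The members and lists were chosen with earlier results of these data known. Named were all members, tested passenger strands and cluster partners, miRNAs that share a seed, and the 3 miRNAs most like the family.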

Additional observations from a re-analysis of the deposited data

How the results depend on the processing

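The count of guide strands called in edgeR was 0 of 10, with 17.2% of all tested miRNAs called. It was also 0 with DESeq2 size factors (15.9% called) and with TMM factors computed without the members (17.9%). With a mean of at least 100 CPM it was 0 as well (18.2%). It was 1 with library totals (let-7i-5p, 24.1% of all tested called) and 1 with scaling to the summed family (let-7i-5p, 12.4%). limma voom gave 1 (let-7j, 20.0%) and DESeq2 gave 3 (25.5%). Without the filter on low counts there were 3 (let-7e-5p/7k and let-7j higher in sEVs, let-7i-5p higher in lEVs, 16.2%). Leaving out 1 library gave 0 to 6. The share of all tested miRNAs called then ran from 10.5% without lEVs replicate 3 (0 members) to 34.4% without lEVs replicate 1 (6 members). The cause was not tested. The call of let-7d-3p, 1 passenger strand, ranged from 0 to 1 when a library was left out, and the 2 cluster partners called were 2 under every alternative run. The difference in family share, sEVs minus lEVs, was -1.17 percentage points; it ranged from -2.30 to 0.89 with a library left out and was 0.24 in CPM with TMM factors, so its sign turned with that scaling and without lEVs replicate 1. Members without overlap in their share within the family were 5 of 10, where 40.7% of all tested miRNAs did not overlap. With a library left out they were 5 to 8. The 8 came without lEVs replicate 1, where 66.9% of all tested miRNAs did not overlap. The log2 fold change of let-7b-5p turned to -0.05 and -0.01 without lEVs replicates 2 and 3 and was 0.59 without lEVs replicate 1; no other member changed sign under the 15 alternatives. Library totals moved the median log2 fold change of all tested miRNAs from -0.04 to -0.18, and scaling to the family to -0.15.

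Whether same-numbered libraries of the fractions come from a shared preparation is not in the labels. Correlations of their deviations were -0.041, 0.02 and 0.35, and only those of replicate 3 were highest with their own number. With 3 libraries per fraction, these values cannot decide it. With the replicate block, 26 miRNAs were called against 25, among them 1 member, let-7e-5p/7k (edgeR adjusted p = 0.0399), and the difference in family share stayed at -1.17 points (exact sign-flip p = 1). Depth limits let-7j and miR-98-5p, with 10 counts in their lowest libraries.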
